A study of Homo sapiens with 8 samples.

Results

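The genes described here encode the matrix metalloproteinases (MMP), their tissue inhibitors (TIMP), the ADAMTS proteases and the ADAMTS-like proteins. They were chosen by gene symbol, as every gene of the deposited table whose symbol is MMP, TIMP1 to TIMP4, ADAMTS or ADAMTSL followed by its number. This gave 52 of the 60623 genes in the table, with 24 MMP, 4 TIMP, 19 ADAMTS and 5 ADAMTSL genes. Of these 52 genes, 42 had at least 1 read in the 8 libraries, 10 had none, and 29 passed the filter on low counts and were tested. Of the 29 tested genes, 24 were over the filter's minimum in all 8 libraries, and ADAMTS13, ADAMTS17, MMP1, MMP3 and MMP28 were under it in at least 1 library.

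The study sequenced polyadenylated RNA of ARPE-19, an established human retinal pigment epithelial cell line, after 24 h of exposure in 4 groups of 2 biological replicates. The combination group received diesel particulate matter (SRM 1650b, a reference material sold as a standard, here used as PM2.5) at 200 µg/mL together with fucoidan, a sulphated polysaccharide from the brown alga Fucus vesiculosus, at 400 µg/mL. The particulate group received the particles alone at 200 µg/mL, the fucoidan group received fucoidan alone at 400 µg/mL, and the control group received the same volume of phosphate-buffered saline. The particles were first suspended in dimethyl sulphoxide. No group received that solvent without particles, so particles and solvent cannot be told apart in the comparisons below.

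Matrix metalloproteinases are zinc-dependent endopeptidases made as inactive precursors, which cleave collagens, laminins, proteoglycans and many cell-surface proteins. TIMP proteins block their active site, and TIMP3 also binds to matrix and inhibits several ADAMTS enzymes. In the eye the retinal pigment epithelium deposits TIMP3 in Bruch's membrane, the sheet of matrix beneath it, and mutations of TIMP3 cause Sorsby fundus dystrophy. ADAMTS enzymes are secreted proteases with thrombospondin repeats that cut proteoglycans, procollagens and von Willebrand factor, and the ADAMTS-like proteins share the repeats but lack the protease domain.

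The libraries held 12993565 to 17019284 counted reads. Of the markers of retinal pigment epithelium, KRT8, KRT18, OTX2 and MITF were present with at least 5788 reads each, whereas RPE65 had 2 reads, RGR 1 read and DCT 0 reads in all 8 libraries. Of 4 endothelial markers, PECAM1 had 1 read, CDH5 3, TEK 3 and KDR 22, and their sum was 0.0639 to 0.390 CPM per library. Of 4 leucocyte markers, PTPRC had 2 reads, CD68 18, CD14 31 and CSF1R 457, and their sum was 2.87 to 5.33 CPM per library. All 5 genes of a list of fibroblast and smooth muscle markers had reads, and their summed level, in counts scaled to library size (CPM), was 60.2 and 47.3 in the combination libraries, 36.0 and 36.4 in the particulate libraries, 330 and 309 in the fucoidan libraries and 304 and 273 in the control libraries. That sum came almost wholly from PDGFRB and ACTA2, while DCN had 3 reads and LUM had 1 read, and its part in the results below was not tested. The 14 genes of the pigment epithelium list summed to 1653 and 1853 CPM in the combination, 2240 and 1725 CPM with particulate, 3713 and 3872 CPM with fucoidan and 3645 and 3361 CPM in control, of which KRT8 and KRT18 made up 94.5% to 96.8% in each library. BEST1 went the other way, with 3.93 and 2.90 CPM in the combination, 2.08 and 3.36 CPM with particulate, 1.33 and 0.958 CPM with fucoidan and 0.708 and 0.319 CPM in control. The part of these markers in the results was not tested. The 2 combination libraries differed from each other more than those of other groups, with 11.3% of tested genes at least 2-fold apart, against 3.55% in particulate, 1.55% in fucoidan and 1.61% in control. The 10 genes of a hypoxia and glycolysis list summed to 15020 CPM in combination replicate 1 and 2948 CPM in combination replicate 2, against 3832 to 7625 CPM in the other 6 libraries. In such bulk libraries fewer cells of a type and less RNA per cell cannot be told apart.

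The sequences upstream of 5 of these genes are shown because the genes differ in how they were used by these cells. MMP14 and TIMP3 were the protease and the inhibitor with the highest levels. Among the tested genes with an upstream sequence available, only ADAMTS12 held the letters TGANTCA. N is any base, so this pattern is wider than the core bound by AP-1 factors, which has C or G there. MMP7 and MMP10 lie in the same run of MMP genes on chromosome 11 as MMP1 and MMP3. Each sequence is the 250 bases before the transcript start in RefSeq annotation of GRCh38.p14, read 5′ to 3′ on the gene's strand, with capitals marking matches to TGANTCA and to TATAAA. The intervals are chr14:22836335-22836584 (plus strand) for MMP14, chr22:32801455-32801704 (plus) for TIMP3, chr5:33891991-33892240 (minus) for ADAMTS12, chr11:102530748-102530997 (minus) for MMP7 and chr11:102780629-102780878 (minus) for MMP10.
MMP14: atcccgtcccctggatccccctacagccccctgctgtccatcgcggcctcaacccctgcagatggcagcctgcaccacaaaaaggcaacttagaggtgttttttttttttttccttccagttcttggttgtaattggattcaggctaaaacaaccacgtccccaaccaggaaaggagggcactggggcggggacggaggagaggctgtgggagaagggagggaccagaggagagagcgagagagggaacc
TIMP3: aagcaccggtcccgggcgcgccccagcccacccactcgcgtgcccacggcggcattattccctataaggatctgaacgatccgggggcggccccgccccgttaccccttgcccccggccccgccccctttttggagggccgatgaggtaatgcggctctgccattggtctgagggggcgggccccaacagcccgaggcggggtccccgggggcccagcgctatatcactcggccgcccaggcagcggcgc
ADAMTS12: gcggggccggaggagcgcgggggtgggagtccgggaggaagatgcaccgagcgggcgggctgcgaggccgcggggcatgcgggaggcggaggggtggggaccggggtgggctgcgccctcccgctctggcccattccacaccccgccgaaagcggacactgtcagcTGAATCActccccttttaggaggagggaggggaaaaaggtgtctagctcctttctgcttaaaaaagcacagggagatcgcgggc
MMP7: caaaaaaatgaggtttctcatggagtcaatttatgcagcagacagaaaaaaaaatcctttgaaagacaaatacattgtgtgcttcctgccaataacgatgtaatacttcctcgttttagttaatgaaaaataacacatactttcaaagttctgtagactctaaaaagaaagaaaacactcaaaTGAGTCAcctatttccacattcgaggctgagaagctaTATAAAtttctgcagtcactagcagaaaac
MMP10: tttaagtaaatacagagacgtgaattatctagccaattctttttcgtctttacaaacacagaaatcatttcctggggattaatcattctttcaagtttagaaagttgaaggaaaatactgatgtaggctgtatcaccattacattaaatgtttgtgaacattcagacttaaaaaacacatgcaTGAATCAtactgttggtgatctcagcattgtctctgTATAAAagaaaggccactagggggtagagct

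Of the 52 genes, 32 had an entry in the promoter table and 19 of these were tested. MMP1, MMP3, MMP2, TIMP2, ADAMTS5, ADAMTS9 and ADAMTS15 were among the tested genes without an entry. Their upstream sequences were not searched for either motif. TGANTCA, which reads the same on both strands, was found in the upstream sequence of 4 of the 32, namely ADAMTS12, MMP7, MMP10 and MMP20. Of the 19 tested genes, 1 held it. The pattern occurs in 6.57% of all 35116 promoters of that length. In ADAMTS12 the match was TGAATCA, 84 bases before the start. In MMP7 and MMP10 the match lay 67 bases before the start, as TGAGTCA in MMP7 and TGAATCA in MMP10. TATAAA, sought on both strands, was found in 8 of the 32 genes and in 0 of the 19 tested ones, against 10.7% of all promoters. The share of G and C in these 250 bases had a median of 73.2% (range 52.4% to 83.6%) over the 19 tested genes and 60.0% (32.8% to 78.4%) over the 13 that were not tested. A match describes letters and is not evidence of a bound site.

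Levels are compared between genes only as TPM, the authors' unit that divides counts by gene length, and between groups as CPM. MMP14, the membrane-type enzyme that cleaves fibrillar collagen and activates the MMP2 precursor, had the highest mean level over the 8 libraries at 912 TPM. TIMP3 followed with 697 TPM, TIMP2 with 495 TPM and TIMP1 with 305 TPM. The next genes were ADAMTS1 at 86.2 TPM, ADAMTS12 at 74.7 TPM, ADAMTS15 at 65.5 TPM and MMP2 at 53.1 TPM. These 8 genes stood above every other member in mean TPM. No read was counted for MMP8, MMP9, MMP12, MMP13, MMP20, MMP21, MMP23B, MMP26, MMP27 or ADAMTSL2, and 3 reads in the 125876800 counted over all libraries would be 0.0238 CPM.

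**Figure D1:**
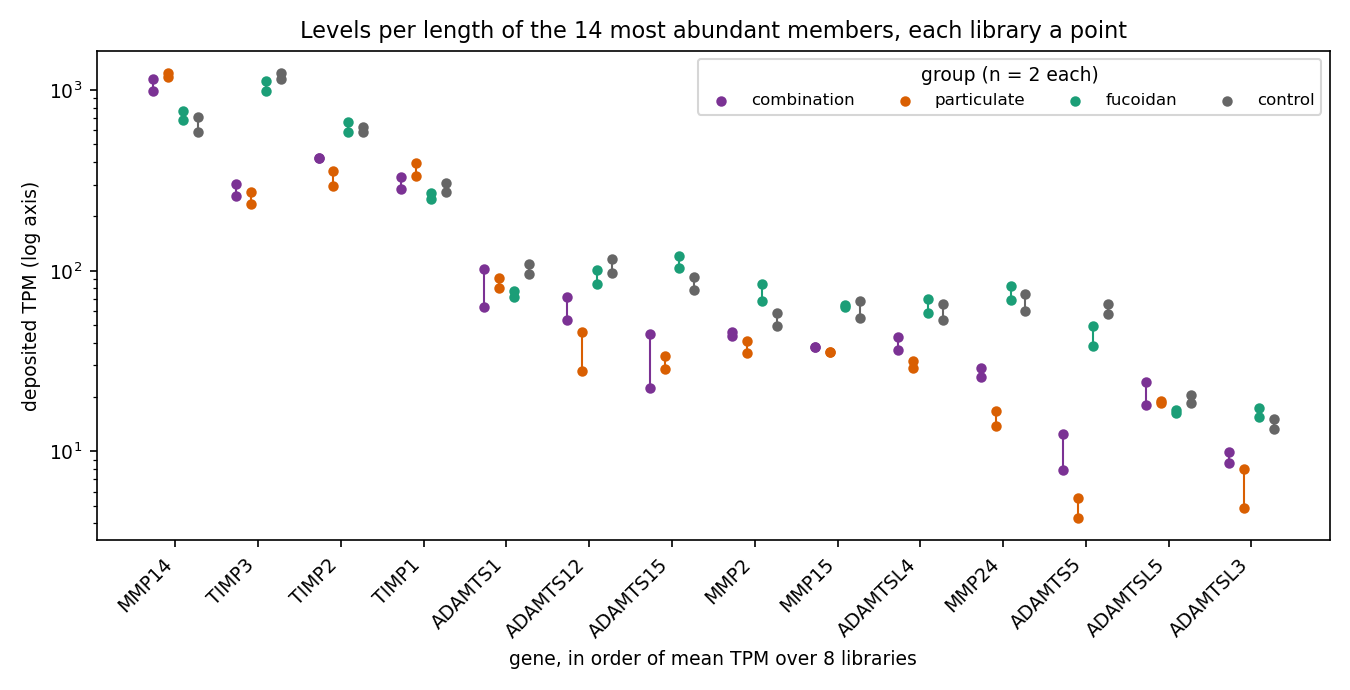
Level (TPM) of the most abundant members in each library, by group, with genes in order of mean TPM. MMP14 and TIMP1 to TIMP3 lie above the other genes, and TIMP3 sits at 235 to 301 TPM in the 4 libraries that received particles and at 987 to 1243 TPM in the 4 that did not.

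Exposure to particulate changed most of the tested genes of this group, and mainly downward. In edgeR's quasi-likelihood test with Benjamini-Hochberg adjustment over all genes, 17 of the 29 tested members passed at an adjusted p under 0.05 for particulate against control, 3 higher and 14 lower, while 20.6% of all 15010 tested genes passed, 9.11% higher and 11.5% lower. The median log2 fold change was -0.81 over the 29 tested members and 0.01 over all tested genes. MMP1, MMP3 and MMP14 rose, and TIMP3, TIMP2, ADAMTS5, ADAMTS12, ADAMTS15 and MMP24 were among those that fell. By family, 3 MMP genes rose and 4 fell, and 2 TIMP, 6 ADAMTS and 2 ADAMTSL genes fell. Since 5 of the 29 had entered through some of the libraries only, these counts describe the tested genes and not the whole group. Of the 17 genes, 11 passed under each of the 15 other settings that were tried.

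**Figure D2:**
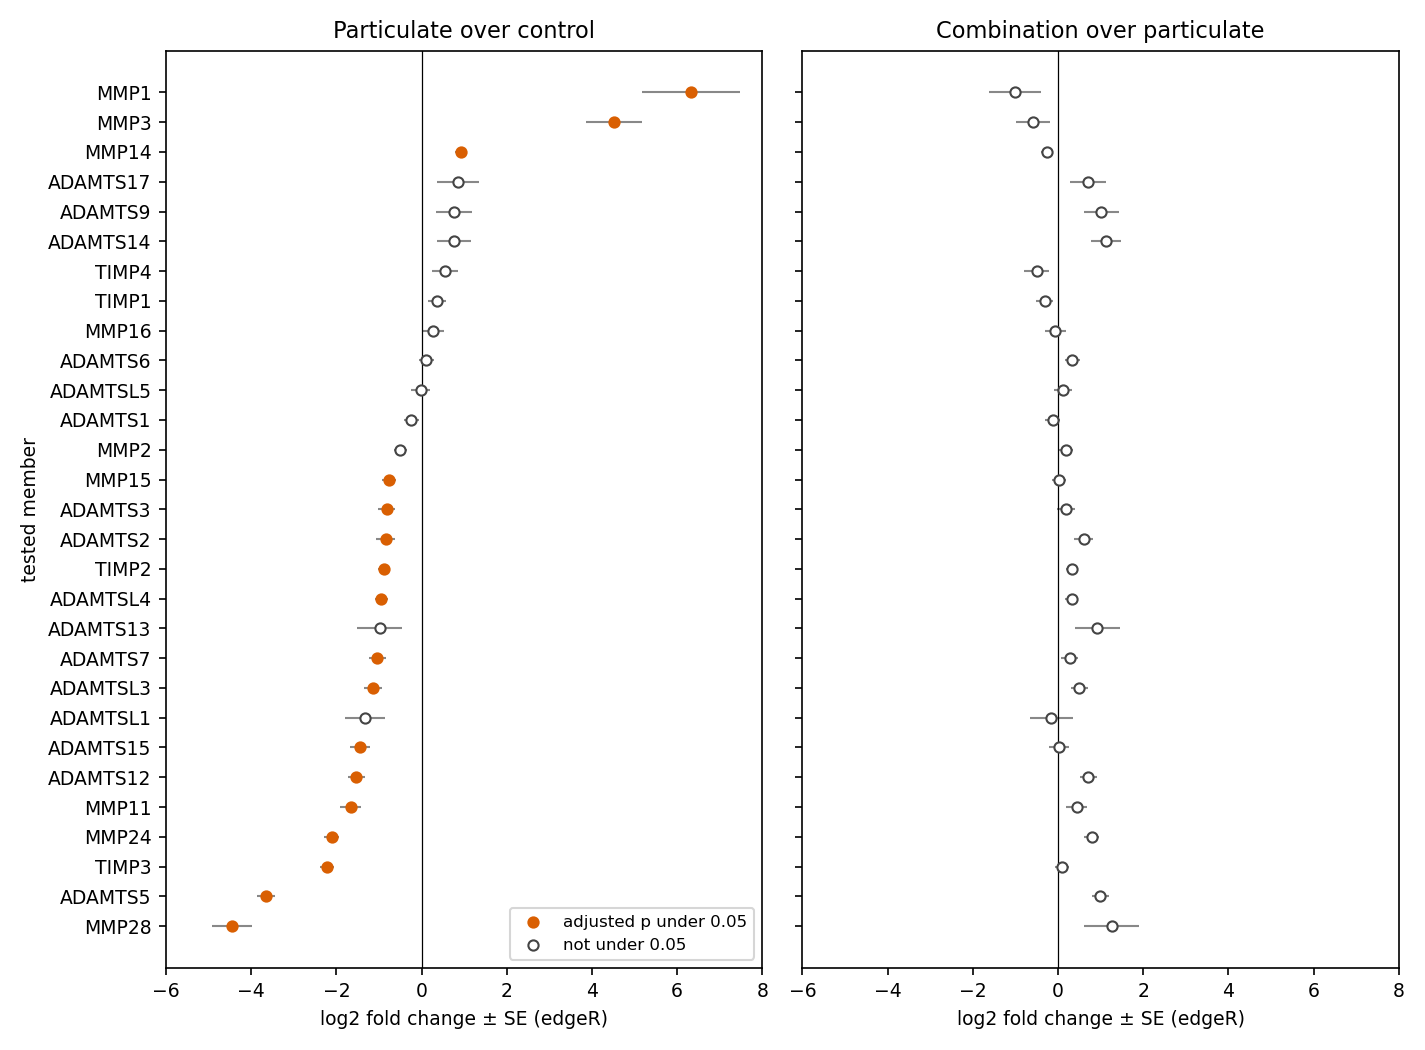
Log2 fold change (± SE) of the 29 tested members for particulate over control (left) and for the combination over particulate (right). MMP1 and MMP3 lie farthest to the higher side with particulate, at 6.32 and 4.52, and MMP28 and ADAMTS5 farthest to the lower side, at -4.45 and -3.64.

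MMP1, the interstitial collagenase that makes the first cut in fibrillar collagens, was almost without reads in untreated cells. It had 19 and 36 reads in the combination libraries, 63 and 49 reads in the particulate libraries, 11 and 0 reads in the fucoidan libraries and 0 and 1 read in the control libraries. All 4 libraries with particles were above the 4 without them, and the fucoidan replicates differed from each other. The filter kept MMP1 through the groups with particles, where it was high, and no control library reached its minimum. MMP1 rose with particulate by 6.32 ± 1.15 on the log2 scale (SE; edgeR quasi-likelihood test, adjusted p = 0.00483). Because control held 1 read, the ratio of library-scaled reads is also given, at 98.9 with a 95% exact counting interval of 17.4 to 3942, which covers counting error only. The call rested on the control libraries, with a value of 5.54 and an adjusted p of 0.0734 without control replicate 1, and 8.71 and 0.0511 without control replicate 2. The other collagenases, MMP8 and MMP13, had no read.

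MMP3, or stromelysin, cleaves proteoglycans, laminin and other metalloproteinase precursors. It had 21 and 16 reads in the combination, 34 and 24 with particulate, 4 and 11 with fucoidan and 1 and 1 in control. The lowest library with particles was above the highest without them. As for MMP1, the filter kept MMP3 through the groups with particles, and no control library reached its minimum. MMP3 rose with particulate by 4.52 ± 0.65 (SE) on the log2 scale (edgeR, adjusted p = 0.0015), and its counting ratio was 25.6 with an interval of 6.78 to 217. In the combination it rose by 3.93 ± 0.70 against control (adjusted p = 0.00627), and MMP1 rose by 5.32 ± 1.26 (adjusted p = 0.0213). Without control replicate 1 the combination gave 3.99 for MMP3 (adjusted p = 0.0785) and 4.53 for MMP1 (0.178), and without control replicate 2 it gave 3.86 for MMP3 (0.0783) and 7.70 for MMP1 (0.125).

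MMP1 and MMP3 are neighbours in a run of 9 MMP genes on chromosome 11, from MMP7 to MMP13 (chr11:102520508-102955734, GRCh38, GENCODE 29). The other genes of that run included 5, MMP20, MMP27, MMP8, MMP12 and MMP13, with no read in any library, and MMP1 and MMP3 were the only ones of the 9 that were tested. MMP7, or matrilysin, had 15 reads in all, of which 1 fell in the combination, 3 with particulate, 7 with fucoidan and 4 in control. MMP10, a second stromelysin that lies between MMP8 and MMP1, had 5 and 0 reads in the combination, 0 and 2 with particulate, 0 and 0 with fucoidan and 0 and 0 in control. Neither gene reached the minimum count, and no difference between groups could be detected at this depth.

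**Figure D3:**
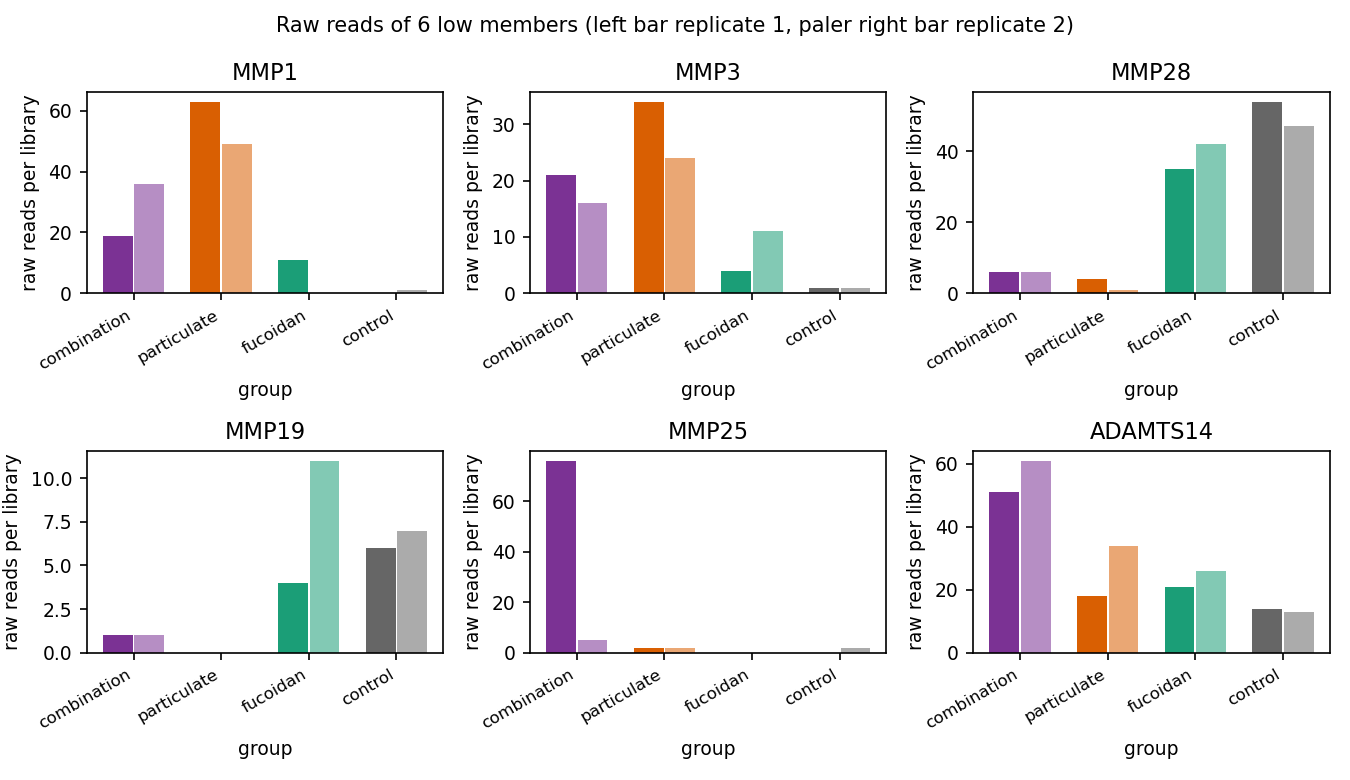
Raw reads per library of MMP1, MMP3, MMP28, MMP19, MMP25 and ADAMTS14. MMP1 holds 19 to 63 reads and MMP3 16 to 34 reads in the libraries with particles, and MMP25 holds 76 reads in combination replicate 1 and 0 to 5 in the other libraries.

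MMP11, another stromelysin-group enzyme, moved the other way. It had 3.53 and 3.45 CPM in the combination, 2.54 and 2.63 CPM with particulate, 15.8 and 13.5 CPM with fucoidan and 9.42 and 7.03 CPM in control. Libraries with particles were below all libraries without them, and both fucoidan libraries were above both control libraries. MMP11 fell by 1.67 on the log2 scale with particulate (SE 0.24, edgeR, adjusted p = 0.00137) and fell by 1.23 in the combination (SE 0.23, adjusted p = 0.0083; 0.104 without control replicate 1), and its value with fucoidan alone was 0.83 ± 0.22 with an adjusted p of 0.754. An exon of CHCHD10 overlaps MMP11 on the opposite strand, and CHCHD10 had 410 reads over the 8 libraries against 873 of MMP11. CHCHD10 had 3.33 and 2.67 CPM in the combination, 5.77 and 3.91 CPM with particulate, 2.03 and 2.21 CPM with fucoidan and 2.83 and 2.88 CPM in control. Whether the authors counted by strand is unstated in the labels, so reads of both genes may be mixed.

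MMP2, the gelatinase that cleaves type IV collagen, had 61.8 and 51.7 CPM in the combination, 49.4 and 49.8 CPM with particulate, 103 and 87.0 CPM with fucoidan and 74.1 and 65.7 CPM in control. The groups were ordered without overlap, with fucoidan highest and particulate lowest. In the edgeR fit of all 8 libraries, particulate against control gave -0.49 ± 0.16 with an adjusted p of 0.0573. Fucoidan against control gave 0.44 ± 0.16 with an adjusted p of 0.999. For particulate, a fit of only the 4 libraries compared called MMP2 lower (adjusted p = 0.0344). So did limma-voom with sample quality weights (0.0440). DESeq2, limma-trend, RLE scaling, a replicate block and the fit without a filter gave no call for particulate against control. Between the combination and fucoidan alone MMP2 fell by 0.75 on the log2 scale (SE 0.16, edgeR, adjusted p = 0.012). This last call was lost without fucoidan replicate 1 (adjusted p = 0.136). The other gelatinase, MMP9, had no read.

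Among the membrane-type enzymes MMP14 rose and MMP24 and MMP15 fell. MMP14 had 1254 and 1281 CPM in the combination, 1577 and 1440 CPM with particulate, 891 and 832 CPM with fucoidan and 850 and 733 CPM in control. The group means were 1268 ± 19.1, 1508 ± 97.1, 861 ± 42.1 and 792 ± 82.4 CPM in the same order of groups (SD, n = 2 each). Both groups with particles stood above both groups without them, with particulate alone the highest. The rise with particulate was 0.93 ± 0.14 on the log2 scale (SE; edgeR, adjusted p = 0.00203) and passed under all 15 other settings. In the combination MMP14 rose against control by 0.68 ± 0.14 (adjusted p = 0.0127), a call that was lost when control replicate 1 (adjusted p = 0.0704) or control replicate 2 (0.132) was left out. As a share of the summed TPM of all MMP genes, MMP14 made up 88.2% and 90.2% in the combination, 92.1% and 91.6% with particulate, 74.8% and 75.6% with fucoidan and 76.3% and 76.6% in control.

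MMP24, a membrane-type enzyme best known from neural tissue, had 36.1 and 28.5 CPM in the combination, 18.2 and 19.1 CPM with particulate, 94.1 and 82.2 CPM with fucoidan and 87.3 and 73.9 CPM in control. Particulate was lowest, the combination intermediate, and the fucoidan and control libraries overlapped. MMP24 fell by 2.11 on the log2 scale with particulate (SE 0.18, edgeR, adjusted p = 9.2e-05) and fell by 1.32 in the combination (SE 0.17, adjusted p = 0.0015), both under all settings tried. MMP24OS, a protein-coding gene on the opposite strand whose exons overlap MMP24, had 8128 reads in all against 6649 of MMP24. MMP24OS had 46.7 and 51.3 CPM in the combination, 67.0 and 49.4 CPM with particulate, 84.2 and 81.9 CPM with fucoidan and 70.3 and 70.0 CPM in control. Its libraries with particles were likewise below those without, by a narrow margin, and the part of shared reads in the result was not tested.

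MMP15, which like MMP14 spans the membrane and can activate MMP2, had 45.7 and 40.1 CPM in the combination, 45 and 39.2 CPM with particulate, 71.5 and 72.5 CPM with fucoidan and 77.4 and 65.6 CPM in control. All libraries with particles were below all without them. It fell by 0.76 with particulate (SE 0.16, edgeR, adjusted p = 0.00927) and by 0.74 in the combination (SE 0.16, adjusted p = 0.0146). The first call had an adjusted p of 0.121 without control replicate 1, and the second had 0.164 without control replicate 1 and 0.0623 without control replicate 2. MMP16 passed in no comparison, with 16.2 to 28.3 CPM over the 8 libraries.

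MMP28, or epilysin, an enzyme made by keratinocytes and other epithelia, fell to a few reads where particles were present. It had 6 and 6 reads in the combination, 4 and 1 with particulate, 35 and 42 with fucoidan and 54 and 47 in control. The libraries with particles did not overlap those without. It fell by 4.45 with particulate (SE 0.48, edgeR, adjusted p = 0.000283) and by 3.20 in the combination (SE 0.41, adjusted p = 0.00134). The filter kept MMP28 through the groups where it was high.

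MMP25 and MMP19 were outside the test and differed in raw reads. MMP25, an enzyme anchored by a lipid tail and known from neutrophils, had 76 and 5 reads in the combination, 2 and 2 with particulate, 0 and 0 with fucoidan and 0 and 2 in control. Of its 87 reads, 76 fell in combination replicate 1, the library with the highest sum of hypoxia genes, and the part of that state was not tested. Pooled over libraries the combination stood at 36.6 times control, with a 95% exact counting interval of 9.81 to 307. With fucoidan set to a floor of 3 reads over the group, the combination stood 24.2-fold above fucoidan. The counting interval of that ratio had a lower bound of 19.2. These ratios compare reads of these libraries only. The antisense gene MMP25-AS1 overlaps it and had 573 reads, at 3.18 to 5.38 CPM in each library. MMP19 had 1 and 1 reads in the combination, 0 and 0 with particulate, 4 and 11 with fucoidan and 6 and 7 in control. With particulate set to the same floor, it was 4.91-fold lower with particulate than in control. The exact counting interval of that ratio ran from 0 to 0.290. TMEM198B overlaps MMP19 on the opposite strand with 1571 reads, at 6.66 and 8.64 CPM in the combination, 8.94 and 6.11 CPM with particulate, 18.6 and 17.1 CPM with fucoidan and 19.8 and 16.5 CPM in control. It thus moved with MMP19, and its part in the reads of MMP19 was not tested. MMP17 had 20 reads and MMP23A 3 reads in all.

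The inhibitors gave the second large block of reads. TIMP3 had 395 and 301 CPM in the combination, 323 and 327 CPM with particulate, 1351 and 1241 CPM with fucoidan and 1543 and 1493 CPM in control. The group means were 348 ± 66.6, 325 ± 3.43, 1296 ± 77.9 and 1518 ± 35.9 CPM in that order (SD, n = 2 each). No library with particles came near the lowest library without them, and fucoidan lay just below control. TIMP3 fell by 2.22 on the log2 scale with particulate (SE 0.17, edgeR, adjusted p = 5.62e-05), and fell by 2.12 in the combination (SE 0.17, adjusted p = 0.000141), under every setting tried. The combination against particulate gave 0.10 ± 0.16 with an adjusted p of 0.761. TIMP3 lies at chr22:32801701-32863043 on the plus strand (GRCh38, GENCODE 29).

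TIMP2, which inhibits many metalloproteinases and also bridges MMP14 to the MMP2 precursor, had 679 and 595 CPM in the combination, 493 and 525 CPM with particulate, 978 and 904 CPM with fucoidan and 949 and 934 CPM in control. Particulate was lowest, the combination next, and fucoidan and control overlapped. It fell by 0.89 with particulate (SE 0.14, edgeR, adjusted p = 0.0023) and by 0.56 in the combination (SE 0.14, adjusted p = 0.0245). The second call had an adjusted p of 0.167 without control replicate 1, 0.135 without control replicate 2, 0.0615 without fucoidan replicate 1 and 0.0622 without fucoidan replicate 2.

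TIMP1 and TIMP4 did not follow TIMP2 and TIMP3. TIMP1, the inhibitor induced by growth factors and cytokines in many cells, had 136 and 103 CPM in the combination, 171 and 126 CPM with particulate, 94.6 and 107 CPM with fucoidan and 106 and 125 CPM in control. Particulate lay above control by a narrow margin, the combination overlapped all other groups, and particulate against control gave 0.36 ± 0.20 with an adjusted p of 0.235. TIMP4 was low, with 22 and 32 reads in the combination, 42 and 36 with particulate, 17 and 25 with fucoidan and 21 and 26 in control, and gave 0.55 ± 0.29 (adjusted p = 0.219) for particulate against control. TIMP1 thus made up 31.2% and 29.2% of summed TIMP TPM in the combination, 42.6% and 34.3% with particulate, 12.3% and 14.6% with fucoidan and 12.7% and 14.9% in control. TIMP3 made up 28.5% and 26.8%, 25.2% and 28.1%, 55.0% and 53.4%, and 58.0% and 56.1% in the same order of groups.

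The summed TPM of the 24 MMP genes was 1117 and 1269 in the combination, 1285 and 1352 with particulate, 1025 and 903 with fucoidan and 926 and 761 in control. The summed TPM of the 4 TIMP genes was 1057 and 972 in the combination, 931 and 970 with particulate, 2046 and 1850 with fucoidan and 2145 and 2048 in control. TIMP transcripts outnumbered MMP transcripts in every library without particles and were fewer in every library with them. The ratio of the TIMP sum to the MMP sum was 0.946 and 0.765 in the combination, 0.725 and 0.718 with particulate, 2.00 and 2.05 with fucoidan and 2.32 and 2.69 in control. These sums are of RNA and rest mostly on MMP14, TIMP1, TIMP2 and TIMP3, and no test was made on them.

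**Figure D4:**
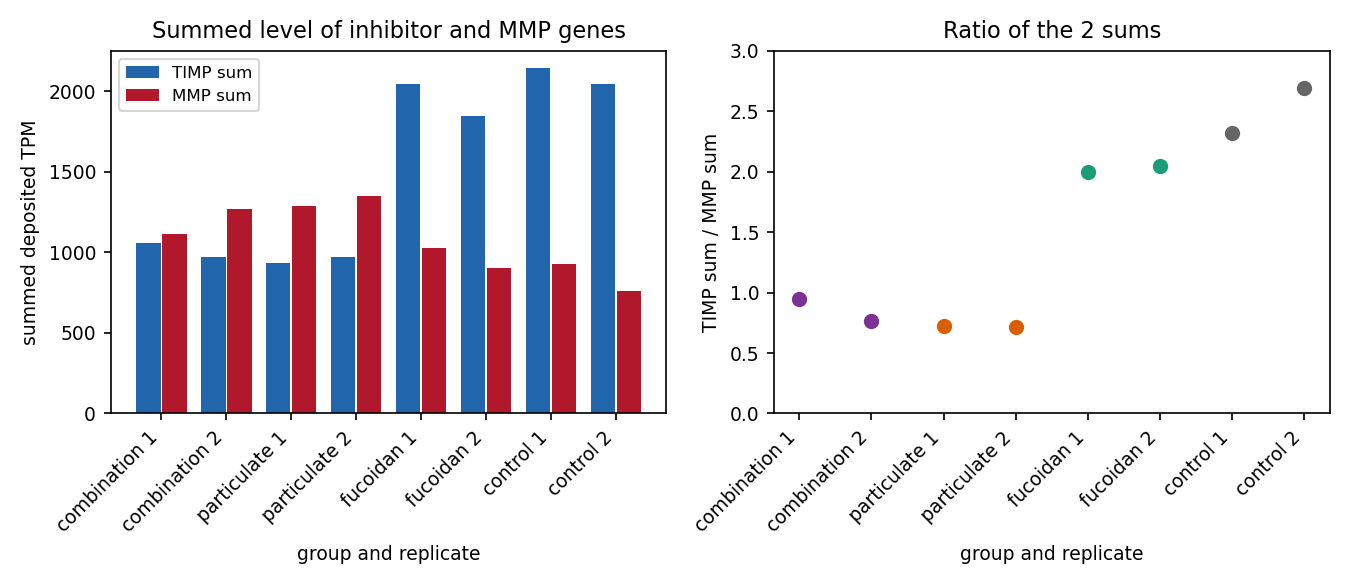
Summed TPM of TIMP and MMP genes in each library (left) and the ratio of both sums (right). The ratio is 0.718 to 0.946 in the 4 libraries with particles and 2.00 to 2.69 in the 4 libraries without them.

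Of the proteases that cut aggregating proteoglycans, ADAMTS5 and ADAMTS15 fell. ADAMTS5, a main aggrecan-cleaving enzyme of cartilage, had 22 and 30.6 CPM in the combination, 12.5 and 14.1 CPM with particulate, 126 and 102 CPM with fucoidan and 173 and 159 CPM in control. The 4 groups did not overlap, and particulate was lowest and control highest. ADAMTS5 fell by 3.64 on the log2 scale with particulate (SE 0.21, edgeR, adjusted p = 1.8e-05) and fell by 2.65 in the combination against control (SE 0.20, adjusted p = 0.000124), under every setting tried. The combination against particulate gave 0.99 ± 0.20, with an unadjusted p of 0.000627 and an adjusted p of 0.128. The interaction, which asks whether particulate had another effect with fucoidan than without it, gave 1.53 ± 0.27 for ADAMTS5 with an adjusted p of 0.497.

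ADAMTS15, which cleaves versican and aggrecan, had 36.4 and 63.2 CPM in the combination, 48.5 and 49.7 CPM with particulate, 179 and 160 CPM with fucoidan and 142 and 125 CPM in control. Libraries with particles did not overlap those without, and fucoidan stood highest. It fell by 1.44 with particulate (SE 0.23, edgeR, adjusted p = 0.00265) and by 1.42 in the combination (SE 0.23, adjusted p = 0.00446), and the second call had an adjusted p of 0.0596 without control replicate 1. ADAMTS1, the first of the family to be described and an enzyme that also cuts versican, had 127 and 182 CPM in the combination, 170 and 167 CPM with particulate, 132 and 148 CPM with fucoidan and 207 and 191 CPM in control. Control was highest throughout, and ADAMTS1 passed in no comparison of the edgeR fit of all 8 libraries, with -0.24 ± 0.18 for particulate against control (adjusted p = 0.38). Without combination replicate 2 it passed as lower in the combination against control (adjusted p = 0.00953).

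ADAMTS9, a versican-cleaving enzyme that also acts at the base of cilia, was the proteoglycan-cutting enzyme whose values were higher with particles. It had 66.8 and 23.4 CPM in the combination, 17.6 and 26.8 CPM with particulate, 13.1 and 9.88 CPM with fucoidan and 13 and 13 CPM in control. All libraries with particles were above all without them, and combination replicate 1 stood far above replicate 2. Particulate against control gave 0.77 ± 0.42 with an adjusted p of 0.231 in the edgeR fit of all 8 libraries. It was called higher in a fit of only the 4 libraries compared (adjusted p = 0.0176). The edgeR fit without a filter beyond 1 read also called it higher (0.00634). DESeq2, limma-trend, limma-voom, RLE scaling and a replicate block gave no call for this comparison. In the combination ADAMTS9 rose by 1.79 ± 0.42 against control (SE; edgeR, adjusted p = 0.0212) and by 1.97 ± 0.43 against fucoidan (adjusted p = 0.012), and both calls were lost in a fit of only the 4 libraries compared. Against control the value was 0.85 without combination replicate 1 and 2.36 without combination replicate 2. The first call was lost without control replicate 1 (adjusted p = 0.164) and control replicate 2 (0.143), and the second without fucoidan replicate 1 (0.0654) and fucoidan replicate 2 (0.104). The replicate with the high value was again the one with 15020 CPM of hypoxia genes against 2948 CPM in the other, and their part in the result was not tested. ADAMTS4, ADAMTS8 and ADAMTS20 had 2, 11 and 7 reads in all.

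**Figure D5:**
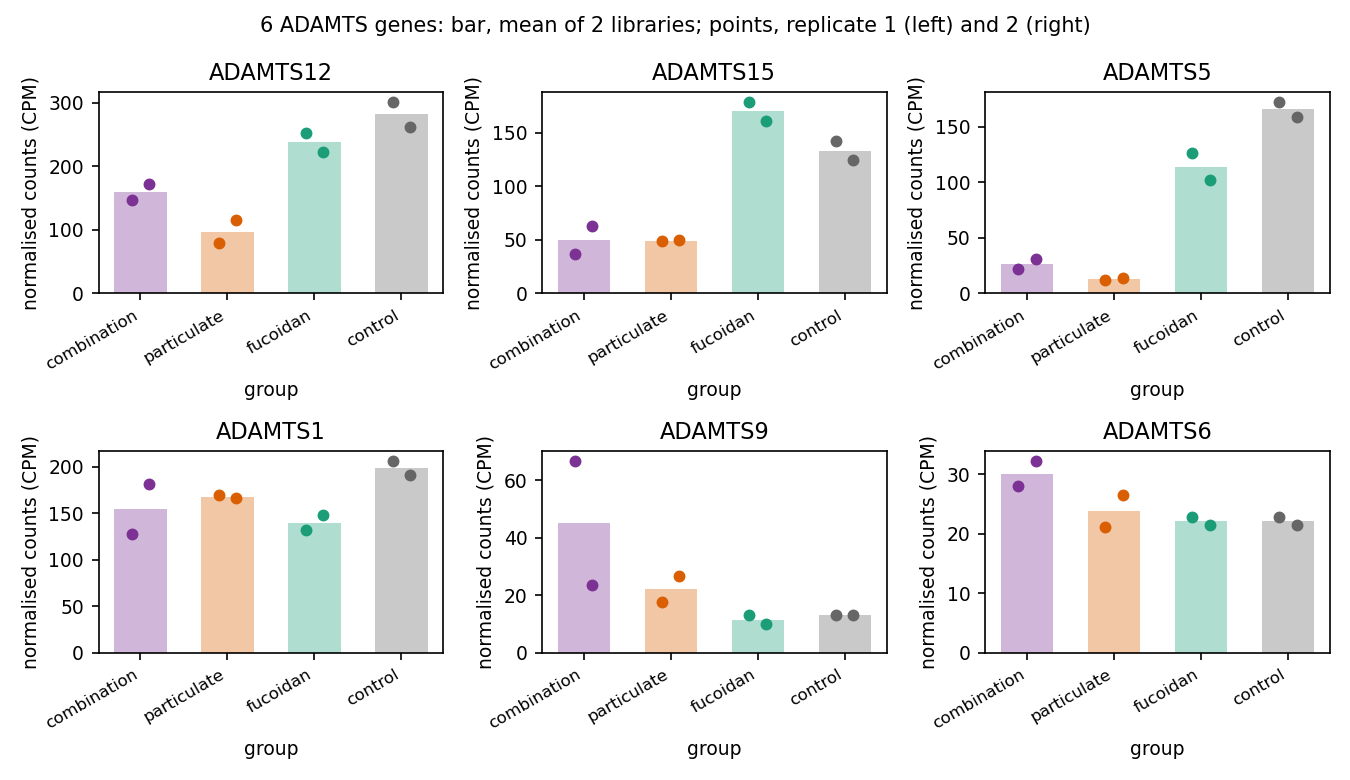
CPM of 6 ADAMTS genes in the 4 groups, with bars at the mean and points for both replicates. ADAMTS12, ADAMTS15 and ADAMTS5 are lower in both groups with particles, and ADAMTS9 has 66.8 and 23.4 CPM in the combination libraries.

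The 3 procollagen N-proteinases, which remove the amino-terminal propeptide of fibrillar procollagens, did not move together. ADAMTS2 had 10.1 and 8.25 CPM in the combination, 6.92 and 5.13 CPM with particulate, 11.2 and 10.6 CPM with fucoidan and 11.8 and 9.90 CPM in control. ADAMTS3, which also activates the lymphatic growth factor VEGF-C, had 5.80 and 5.74 CPM in the combination, 4.79 and 5.32 CPM with particulate, 10.3 and 9.04 CPM with fucoidan and 9.20 and 8.56 CPM in control. Both were lowest with particulate, and only for ADAMTS3 did the combination also lie apart from control. With particulate ADAMTS2 fell by 0.84 (SE 0.23, edgeR, adjusted p = 0.028) and ADAMTS3 by 0.81 (SE 0.20, adjusted p = 0.0206). These 2 calls were the least stable of the 17. The adjusted p of ADAMTS2 was 0.211 without control replicate 1, 0.0868 without control replicate 2, 0.0599 without fucoidan replicate 1, 0.0597 without fucoidan replicate 2 and 0.123 without particulate replicate 2. That of ADAMTS3 was 0.155 without control replicate 1, 0.0966 without control replicate 2, 0.0501 without fucoidan replicate 1 and 0.101 without particulate replicate 1.

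ADAMTS14, the third enzyme of that class, had 51 and 61 reads in the combination, 18 and 34 with particulate, 21 and 26 with fucoidan and 14 and 13 in control. The combination was highest and control lowest, without overlap, and particulate and fucoidan overlapped. It rose in the combination by 1.89 ± 0.37 against control (SE; edgeR, adjusted p = 0.0103), whereas particulate against control gave 0.77 ± 0.40 with an adjusted p of 0.208. The call had an adjusted p of 0.0959 without control replicate 1 and 0.112 without control replicate 2.

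ADAMTS12, which cleaves cartilage oligomeric matrix protein, had 147 and 172 CPM in the combination, 79.8 and 115 CPM with particulate, 253 and 222 CPM with fucoidan and 302 and 262 CPM in control. The 4 groups did not overlap, in the order particulate, combination, fucoidan and control from low to high. It fell by 1.53 with particulate (SE 0.20, edgeR, adjusted p = 0.000811), under every setting tried, and by 0.82 in the combination (SE 0.19, adjusted p = 0.0212; 0.181 without control replicate 1 and 0.0913 without control replicate 2). The combination against particulate gave 0.71 ± 0.19 with an adjusted p of 0.218. Its upstream sequence is the one printed above with TGAATCA in capitals.

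ADAMTS7, a relative of ADAMTS12 with the same substrate, had 13.6 and 12.4 CPM in the combination, 10.8 and 10.8 CPM with particulate, 23.7 and 18.6 CPM with fucoidan and 23.7 and 20.4 CPM in control. Libraries with particles were below those without. It fell by 1.04 with particulate (SE 0.19, edgeR, adjusted p = 0.00491; 0.0674 without control replicate 1) and by 0.76 in the combination (SE 0.19, adjusted p = 0.0241; 0.2 without control replicate 1 and 0.0958 without control replicate 2). The pseudogenes ADAMTS7P1, ADAMTS7P3 and ADAMTS7P4 had 2, 9 and 9 reads in all, so few reads were assigned to these copies.

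ADAMTS17, whose mutations cause a syndrome of short stature and displaced lenses, had 17 and 40 reads in the combination, 20 and 15 with particulate, 6 and 10 with fucoidan and 6 and 11 in control. The groups with particles lay above the others, at a depth where each library held at most 40 reads. The filter kept ADAMTS17 through those groups, and of the other libraries only 1 control library reached its minimum. It passed in the combination against control (1.57 ± 0.47, edgeR, adjusted p = 0.0481) and against fucoidan (1.64 ± 0.47, adjusted p = 0.0369). Each of these calls passed only without combination replicate 1 among the 8 fits that left out 1 library. In the other 7 fits the adjusted p was 0.0674 to 0.302 against control and 0.0569 to 0.213 against fucoidan. ADAMTS13, the von Willebrand factor protease, had 5 to 21 reads per library and passed in no comparison. ADAMTS6, which acts on microfibrils, had 21.2 to 32.3 CPM and passed in none either. ADAMTS10, ADAMTS16, ADAMTS18 and ADAMTS19 had 1, 1, 9 and 4 reads in all.

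Of the ADAMTS-like proteins, ADAMTSL4, which binds fibrillin and whose loss displaces the lens, had the highest TPM. It had 66.5 and 69.0 CPM in the combination, 55.8 and 52.9 CPM with particulate, 117 and 103 CPM with fucoidan and 113 and 96.3 CPM in control. Libraries with particles were below those without. It fell by 0.95 with particulate (SE 0.15, edgeR, adjusted p = 0.00241), under every setting tried, and by 0.63 in the combination (SE 0.15, adjusted p = 0.0218). The second call had an adjusted p of 0.212 without control replicate 1, 0.0807 without control replicate 2 and 0.0541 and 0.0539 without fucoidan replicates 1 and 2.

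ADAMTSL3 had 27.8 and 21.2 CPM in the combination, 14.2 and 20.3 CPM with particulate, 44.4 and 41.5 CPM with fucoidan and 39.9 and 36.4 CPM in control. All libraries with particles were again below the rest. It fell by 1.15 with particulate (SE 0.21, edgeR, adjusted p = 0.00505; 0.0604 without control replicate 1), and the combination against control gave -0.64 ± 0.21 with an adjusted p of 0.0613. ADAMTSL1 had 11 and 40 reads in the combination, 37 and 20 with particulate, 38 and 80 with fucoidan and 62 and 64 in control. Its replicates were far apart in 3 of the 4 groups, and in the edgeR fit of all 8 libraries it passed in no comparison (-1.33 ± 0.46 for particulate against control, adjusted p = 0.0719). Other settings called it lower. For particulate against control the adjusted p was 0.0357 in limma-voom with sample quality weights, 0.00472 in the fit of the 4 libraries compared, and 0.00902 and 0.00908 without combination replicates 1 and 2. For the combination against control it was 0.0365 in DESeq2. ADAMTSL5 had 16 to 25.1 CPM over the 8 libraries and passed in none of the main comparisons.

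Fucoidan alone gave no call. For fucoidan against control 0 of the 29 tested members passed in edgeR's quasi-likelihood test, as did 0 (0%) of all 15010 genes. At an unadjusted p under 0.05 there were 5 members, against 662 genes or 4.41% of all. The 5 were MMP3 (2.76 ± 0.80), MMP11 (0.83 ± 0.22) and MMP2 (0.44 ± 0.16) with positive values and ADAMTS5 (-0.54 ± 0.19) and ADAMTS1 (-0.51 ± 0.18) with negative ones. By other tools, DESeq2 called 0 members and 22 genes, or 0.0809% of all. limma-voom with sample quality weights called 4 members (13.8%) and 313 genes (2.09%). In a fit of only the 4 fucoidan and control libraries 5 of 26 tested members (19.2%) and 849 genes (5.9%) passed. That fit called MMP11, MMP2 and ADAMTS15 higher and ADAMTS1 and ADAMTS5 lower.

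In the combination against control 17 of the 29 tested members passed, 6 higher and 11 lower, where 17% of all genes passed, 8.17% higher and 8.86% lower. The median log2 fold change was -0.36 over the tested members and 0.02 over all genes. The 6 that rose were MMP1, MMP3, MMP14, ADAMTS9, ADAMTS14 and ADAMTS17, and the 11 that fell were TIMP3, TIMP2, ADAMTS5, ADAMTS7, ADAMTS12, ADAMTS15, MMP11, MMP15, MMP24, MMP28 and ADAMTSL4. The calls of ADAMTS5, MMP24, MMP28 and TIMP3 passed in all 15 other settings. In a fit without 1 control library the lone control library is assumed to vary like the other groups. Without control replicate 1 the other 13 missed the threshold, with adjusted p of 0.0596 to 0.302, and 4 members and 2.62% of all genes passed. Without control replicate 2, 11 missed it, with adjusted p of 0.0623 to 0.153, and 6 members and 3.78% of all genes passed. Fold changes moved less than the calls for several of them, with 3.99 for MMP3, 2.02 for ADAMTS14 and -0.55 for TIMP2 without control replicate 1, against 3.93, 1.89 and -0.56 with all libraries.

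The combination was also set against each agent alone. Against fucoidan 16 of the 29 tested members passed, 3 higher and 13 lower, where 20.7% of all genes passed, 10.2% higher and 10.6% lower. The median was -0.56 over the members and 0.03 over all genes. The lowest values were those of MMP28 (-2.82 ± 0.42), ADAMTS5 (-2.11 ± 0.20), MMP11 (-2.06 ± 0.23) and TIMP3 (-1.90 ± 0.16), and MMP14 rose by 0.56 ± 0.14. Without fucoidan replicate 1, 7 members and 4.78% of all genes passed, and without fucoidan replicate 2, 7 members and 5.8% of all genes passed.

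No member passed between the combination and particles alone by the same test. For the combination against particulate 0 of the 29 members passed in edgeR, where 0.0866% of all genes, or 13, passed, 0.0799% higher and 0.00666% lower. The median was 0.27 over the tested members and 0.02 over all genes, and 21 of the 29 values were positive. At an unadjusted p under 0.05 there were 8 members, all with higher values in the combination, against 2599 genes or 17.3% of all, and limma-trend and limma-voom called 0 members. DESeq2 called ADAMTS5 (adjusted p = 0.00254), MMP24 (0.0196) and ADAMTS12 (0.0399), all higher, where 1.11% of all genes passed. Without combination replicate 2, 6 of 31 tested members passed (19.4%), where 20.9% of all genes passed, so the members' share was near the background. Without combination replicate 1 ADAMTS5 was the 1 member that passed, where 0.382% of all genes passed. MMP1, MMP3 and MMP14, which rose with particulate, gave -1.0 ± 0.61, -0.59 ± 0.40 and -0.25 ± 0.14, with adjusted p of 0.399, 0.438 and 0.367. Particulate against control and combination against particulate share the particulate libraries, so their values are not independent.

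The interaction of both agents gave 0 of 29 members and 0 (0%) of all genes in edgeR. At an unadjusted p under 0.05 there were 6 members and 668 genes, or 4.45% of all. ADAMTS5, ADAMTS12 (0.96 ± 0.27), MMP24 (0.66 ± 0.25) and MMP28 (1.64 ± 0.72) had positive values, and MMP1 (-4.25 ± 1.75) and MMP3 (-3.36 ± 0.90) had negative ones. DESeq2 called 1 member, ADAMTS5 (adjusted p = 0.0031), where 0.0772% of all genes passed. Without combination replicate 2, ADAMTS5 and ADAMTS9 passed, where 5.56% of all genes passed, a share near that of 2 in 31 members tested.

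Genes that act on these enzymes were counted from a list of 31 activators, sheddases and other inhibitors, of which 23 were tested. With particulate 5 of the 23 rose and 4 fell, where 9.11% of all genes were higher and 11.5% lower, and the median over the tested genes was 0.03 on the log2 scale. PLAU, the urokinase that makes plasmin, had 19.3 and 78.2 CPM in the combination, 86.7 and 67.1 CPM with particulate, 21.7 and 23.6 CPM with fucoidan and 15.6 and 15.5 CPM in control. Both particulate libraries were high, and the combination libraries differed from each other. It rose with particulate by 2.30 ± 0.50 (SE; edgeR, adjusted p = 0.0111), and its receptor gene PLAUR rose by 1.89 ± 0.32 (adjusted p = 0.00328). CTSL, a lysosomal cysteine protease, rose by 1.51, TFPI2, an inhibitor of plasmin and of some metalloproteinases, by 1.04, and SERPINE2, an inhibitor of thrombin and plasminogen activators, by 1.22. RECK, a membrane-anchored metalloproteinase inhibitor, fell by 0.58, and LRP1, the receptor that clears protease and inhibitor complexes, fell by 1.13. PAPLN fell by 1.06 and the sheddase ADAM10 fell by 0.79. In the combination PLAU, PLAUR, SERPINE2 and CTSL were the 4 that passed against control, all higher, where 8.17% of all genes were higher. With fucoidan alone none of the 23 passed in edgeR.

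Of 13 transcription factor genes, which were AP-1 and ETS members and RUNX2 and are known to act on MMP promoters, 5 rose and 2 fell with particulate, where 9.11% of all genes were higher and 11.5% lower. The median was 0.14, and RUNX2 itself did not pass (adjusted p = 0.364). FOSL1 had 382 and 225 CPM in the combination, 320 and 361 CPM with particulate, 23.6 and 22.6 CPM with fucoidan and 36.8 and 41.1 CPM in control. All libraries with particles were above all without them. FOSL1 rose with particulate by 3.13 ± 0.24 (SE; edgeR, adjusted p = 6.26e-05). ETV4, ETV5, JUN and ETV1 rose by 2.5, 1.79, 1.14 and 1.06. FOS fell by 2.91 and JUNB fell by 1.93. The combination against control also gave 5 higher and 2 lower, where 8.17% of all genes were higher and 8.86% lower.

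Of 16 substrate and ligand genes 10 were tested, and with particulate 0 rose and 7 fell, where 9.11% of all genes were higher and 11.5% lower, and the median was -1.70. COL1A1, a chain of type I collagen that MMP1 and MMP14 cleave, had 46.1 and 49.0 CPM in the combination, 14.1 and 14.2 CPM with particulate, 201 and 168 CPM with fucoidan and 76.7 and 59.0 CPM in control. The 4 groups did not overlap, with fucoidan highest and particulate lowest. It fell by 2.26 with particulate (SE 0.18, edgeR, adjusted p = 6.99e-05). COL4A1, FBN1 and FN1, which encode a basement membrane collagen, fibrillin and fibronectin, had log2 fold changes of -2.17, -1.75 and -1.65 and also fell. COL5A1, VCAN and COL3A1 were the other 3. VCAN had 5 and 4 reads with particulate and 17 and 17 in control, and COL3A1 had 3 and 1 against 14 and 13. The filter kept VCAN and COL3A1 through libraries without particles, and no library with particles reached its minimum. The count and the median above include both genes. COL1A1 was the one gene of this list that passed between the combination and particulate, where it rose by 1.75 ± 0.18 (adjusted p = 0.021).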

How the data were processed

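RNA of 8 ARPE-19 libraries was measured by stranded polyadenylated mRNA sequencing with paired reads. Per the submitters' processing notes the reads were handled with bcl2fastq, fastp 0.20.0 and FastQC 0.11.9, aligned to GRCh38 with HISAT2 2.1.0 and counted with featureCounts of Subread 2.0.1. Which gene annotation was counted, whether strand was used and how multi-mapping reads were treated were not given in the sources. The deposited table holds, per the file headers, raw counts and TPM of each gene and library, both made by the authors, and 0 of its per-sample columns were left unused. It held 0 rows without a gene name.

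Counts were tested with edgeR 4.0.16 (glmQLFit and glmQLFTest) in R 4.3.3, with TMM scaling, filterByExpr over the 4 groups (minimum count 10, minimum total 15) and 1 mean per group over all 8 libraries. This kept 15010 genes. P-values were adjusted by Benjamini-Hochberg over all of them in each of 5 pairwise comparisons and the interaction, with a threshold of 0.05. Fold changes are log2 values of the fit, with SE from the quasi-likelihood F statistic. CPM are counts scaled to the effective library size. With 2 replicates per group an exact permutation test cannot reach the threshold, so none was made. Counting intervals cover counting error only, and the floor of 3 reads covers only that of the group without reads. DESeq2 1.42.0, limma 3.58.1 (trend on log2 TPM with a pseudocount of 0.5, and voom with sample quality weights), RLE scaling, no filter, a replicate block, a fit of the 4 libraries compared and each library left out were the alternatives. The fit was also run on simulated data with known changes, in which all genes and groups had the same spread beyond counting error. The groups of these data differed in spread, so that run does not show how the fit performs on them. GENCODE 29 and RefSeq GRCh38.p14 gave positions and upstream sequences.

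Genes that passed in at least 1 comparison and the 8 with the highest mean TPM are described with the value of every library, other tested or low genes by ranges or reads, and genes without a read by name. The gene family and the lists were chosen with earlier results of these data known, so no count over them is independent evidence.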

Additional observations from a re-analysis of the deposited data

Results flagged for a closer look

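MMP25, ADAMTS18 and ADAMTS20, which were outside the tests, had more reads in a treated group than in control. MMP25 had 81 reads over the combination libraries, against 2 over the control libraries, and 76 of them were in combination replicate 1. ADAMTS18 had 4 reads over the combination libraries, against 1 over the control libraries. ADAMTS20 had 4 reads over the fucoidan libraries, against 2 over the control libraries. The differences of ADAMTS18 and ADAMTS20 are of the size of single reads, and none of the 3 was tested.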

How the results depend on the processing

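No member changed direction under any alternative that was run where it passed. Of the counts, those for particulate against control varied least among the comparisons with calls, with 11 to 21 members and 906 to 5003 genes over the 8 fits that left out 1 library, the lowest without control replicate 1. The ranges were 0 to 0 members and 0 to 38 genes for fucoidan against control, 4 to 19 and 407 to 5137 for combination against control, 0 to 6 and 0 to 3257 for combination against particulate, 7 to 19 and 743 to 5339 for combination against fucoidan, and 0 to 2 and 0 to 865 for the interaction. A fit of only the 4 libraries compared gave 5 members (19.2% of those in that fit) and 849 genes (5.9%) for fucoidan against control. It gave 9 (31%) and 1026 (7.1%) for combination against control and 9 (31%) and 1511 (10.4%) for combination against fucoidan. For combination against particulate it gave 0 genes. DESeq2 gave 22 genes (0.0809%) for fucoidan against control and 3 members (7.14%) and 302 genes (1.11%) for combination against particulate. For the interaction it gave 1 member (2.38%) and 21 genes (0.0772%). Without a filter beyond 1 read there were 73 genes (0.268%) for fucoidan against control. There were 6 members (14.3%) and 1197 genes (4.4%) for combination against particulate, and 4 members (9.52%) and 156 genes (0.573%) for the interaction. limma-trend on TPM gave 5 genes for combination against particulate. limma-voom with sample quality weights, chosen after seeing the data, gave 4 members (13.8%) and 313 genes (2.09%) for fucoidan against control. It gave 4 genes for combination against particulate. The cause of these differences was not tested.

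The replicate numbers did not pair the libraries: the correlation of deviations between groups ran from -0.250 to 0.0754. With the replicate number as a block, 17 members (58.6%) passed in particulate against control, where 16.9% of all genes passed. Combination against control gave 16 members (55.2%) and 12.5% of all genes, and combination against fucoidan gave 16 (55.2%) and 17%. Fucoidan against control and the interaction gave 0 members and 0 genes. Combination against particulate gave 0 members and 3 genes, or 0.02% of all. Depth limits MMP1, MMP3, MMP28, TIMP4, ADAMTS13, ADAMTS14 and ADAMTS17, which had at most 63 reads in a library.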
